A study of Mus musculus with 23 samples.

Results

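Crosslink sites of CTCF were examined on the RNAs of 7 genes for nuclear receptor corepressors and their deacetylases: Ncor1, Ankrd11, Tbl1xr1, Hdac3, Hdac1, Hdac2 and Sin3a. They are 7 of 13608 annotated genes with at least 1 site on their strand in any of the 6 site lists of the series. The genes were chosen by family and on measured values, because Ncor1 and Ankrd11 are among the genes with the most sites, so their site counts and ratios are descriptions and carry no test. A site belonged to a gene when it lay on the strand of the gene inside its body. With the wild type protein the 7 genes held 2238 of 451137 sites in stem cells and 925 of 239258 in progenitors. With the zinc finger 1 mutant they held 1020 of 231636 and 643 of 158490, and without UV 776 of 158968 and 505 of 107227. On mm10, with 1-based positions, Ncor1 (ENSMUSG00000018501.17) lies at chr11:62316426-62458541 on the minus strand, Ankrd11 (ENSMUSG00000035569.17) at chr8:122883822-123042277 on the minus strand and Tbl1xr1 (ENSMUSG00000027630.13) at chr3:22076652-22216594 on the plus strand. Hdac3 (ENSMUSG00000024454.16) lies at chr18:37935844-37955016 on the minus strand and Hdac1 (ENSMUSG00000028800.15) at chr4:129516104-129542713 on the minus strand. Hdac2 (ENSMUSG00000019777.16) lies at chr10:36974544-37001889 and Sin3a (ENSMUSG00000042557.14) at chr9:57072040-57128366, both on the plus strand.

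The libraries are iCLIP2 of nuclear RNA from mouse E14 cells, a method that maps, to the base, where UV has joined a protein to RNA. Every group, the controls included, carried the AID2 degron on both Ctcf alleles and OsTir1(F74G) at Rosa26. All received 1 µM 5-Ph-IAA, which removes the tagged endogenous protein, and 1 µg/mL doxycycline, which turns on a Flag-Halo rescue CTCF from the Tigre locus, for 24 hours. The rescue protein was wild type (WT) or lacked a stretch of zinc finger 1 (ΔZF1). Embryonic stem cells (ESCs) and neural progenitors (NPCs) after 2 days of differentiation were irradiated with 400 mJ/cm2 at 254 nm for both proteins. The unirradiated controls (noXL) of ESCs and NPCs came from the WT rescue line, so the ΔZF1 line has none here. NPC WT had 3 libraries and each of the other groups 4, but sites were called after merging, which leaves 1 list per group, no replicate error and no test between groups. Ranges in parentheses are Wilson intervals at 95%, carried over to ratios, and reflect counting error alone. Depth behind the lists is unknown, and more sites on a gene can come from deeper sequencing, more of its RNA or more linking, which cannot be told apart. Likewise, in bulk cultures fewer cells of a type and less RNA per cell cannot be told apart. Of the stem cell markers, Esrrb went from 460 WT sites in ESCs to 0 in NPCs, where a count of 0 allows up to 3, and Tfcp2l1 from 343 to 5. Of the 5 progenitor markers, Nes went from 2 to 28, and no WT site lay on Sox1, Pax6, Hes5 or Zic1 in either cell type. Ctcf itself had 109 ESC and 28 NPC sites with WT, 68 and 23 with ΔZF1, and 40 and 17 without UV.

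NCOR1 is a large scaffold that binds nuclear receptors when no activating ligand is present. It holds the deacetylase HDAC3 and the WD40 protein TBL1XR1 in a complex that removes acetyl groups from histones and keeps target genes low. SIN3A is the scaffold of another corepressor complex, in which the closely related deacetylases HDAC1 and HDAC2 act. ANKRD11 is an ankyrin repeat protein that binds coactivators of nuclear receptors and brings in deacetylases. NCOR1 is known to hold back neural differentiation genes in progenitors.

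The strongest positions are shown first, to set the base and the surroundings of a called site before its counts. Each window of 21 nt runs 5′ to 3′ on the RNA strand, read from GRCm38, with the called base in capitals. The highest-scoring sites in ESC WT were the following.
Ncor1, 5′ UTR in exon 1, chr11:62457314-62457334, minus strand: ctgagggggaGggagtggggt
Ankrd11, 5′ UTR, chr8:123042246-123042266, minus strand: ggtcctggagCcagaggccgc
Tbl1xr1, 3′ UTR in exon 17, chr3:22211700-22211720, plus strand: gaaaacagttTttaaaggctt
Hdac1, 3′ UTR in exon 14, chr4:129516505-129516525, minus strand: atatattaacTataacgtccc
Hdac2, coding exon 4, chr10:36988110-36988130, plus strand: atggactcttTgagttttgtc
Sin3a, coding exon 16, chr9:57110918-57110938, plus strand: gctcaaaagtTaagagggatg
In NPC WT, Ankrd11 had the same position first, and the other genes had these.
Ncor1, intron 6, chr11:62405657-62405677, minus strand: gggggggcggGgagcatccta
Tbl1xr1, 5′ UTR in exon 1, chr3:22076702-22076722, plus strand: ggagctcattTgtgcctggct
Hdac1, coding exon 11, chr4:129517901-129517921, minus strand: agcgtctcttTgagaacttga
Hdac2, 5′ UTR in exon 1, chr10:36974535-36974555, plus strand: cctacccctgCcgagtgtcgc
Sin3a, coding exon 4, chr9:57089422-57089442, plus strand: agcagcagttCatagcagcca
Over the 7 genes, Hdac3 included, the top base was a uridine in 4 of 7 cases in ESC WT and in 3 of 7 in NPC WT. For Tbl1xr1 and Hdac1 the top site was a uridine in both lists. The top positions of Ncor1 and Ankrd11, the genes with most sites, were instead a guanine or a cytosine.

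At the same base in all 6 lists, 2 positions of the 7 genes were called, and both are in Ankrd11. The position 21 nt after the gene start, shown above, had the highest score of the gene in every list. Its score was 49.7 in ESCs and 56.1 in NPCs with WT, 37.4 and 54.7 with ΔZF1, and 91.9 and 31.3 without UV. The other lies in intron 1, 1 nt before the 5′ end of an annotated snRNA gene, Gm24445, on the same strand.
Ankrd11, intron 1, chr8:122982934-122982954, minus strand: atattaatatAgtgctcgctt
It scored 22.4 in ESC WT and 44.1 in ESC noXL. A called site is the base before the start of a read, so reads counted there begin at the first base of Gm24445. Whether they come from this snRNA or from Ankrd11 RNA was not tested. The intron 6 position of Ncor1 that was first in NPC WT, with a score of 18.6, was also the highest-scoring site of the gene in ESC noXL, at 51.4. The top ESC WT position of Ncor1, 1217 nt from the gene start, scored 41.7 there and 3.88 with ΔZF1, and was called in no other list. A further position was called in all 4 UV lists with no noXL site within 5 nt, and it is a uridine in an exon of another Ankrd11 transcript.
Ankrd11, intron 4 of the principal transcript, chr8:122902131-122902151, minus strand: tgagcatcttTaagaggaggt
Its score was low, from 0.0550 in NPC WT to 4.75 in ESC ΔZF1.

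Per length, Ncor1 had the densest sites of the 7 genes in ESC WT, at 7.35 sites per kb of gene body, followed by Ankrd11 at 5.26 per kb. Sin3a had 1.94, Hdac1 1.77, Hdac2 1.39, Hdac3 1.20 and Tbl1xr1 1.01 sites per kb. Among 8317 genes with at least 5 ESC WT sites, 88.5% were less dense than Ncor1 and 82.6% less dense than Ankrd11, against 54.9% for Sin3a and 36.4% for Tbl1xr1. Without UV in ESCs the matching shares, among 6289 genes, were 90.7% for Ncor1 and 86.3% for Ankrd11. In NPC WT the order was Ankrd11 at 3.38, Hdac1 at 1.88, Ncor1 at 1.32, Hdac2 at 0.951, Sin3a at 0.799, Hdac3 at 0.678 and Tbl1xr1 at 0.493 sites per kb. With WT in ESCs, Ncor1 and Ankrd11 stood apart in introns more than in exons. Tbl1xr1 is about as long as Ncor1, at 139.9 against 142.1 kb, but its intron density was 0.519. In ESC WT the exon density was 16.5 sites per kb in Ncor1, 16.2 in Sin3a and 10.6 in Ankrd11, with the other genes between 5.43 and 8.31. The intron density was 6.45 in Ncor1 and 4.64 in Ankrd11 but at most 0.820, in Hdac1, elsewhere. Without UV in ESCs it was 2.05 in Ncor1 and 1.60 in Ankrd11, and at most 0.432, in Hdac1, elsewhere. In NPC WT it was 2.80 in Ankrd11, 0.993 in Hdac1 and 0.742 in Ncor1, so Ncor1 did not stand apart there.

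**Figure D1:**
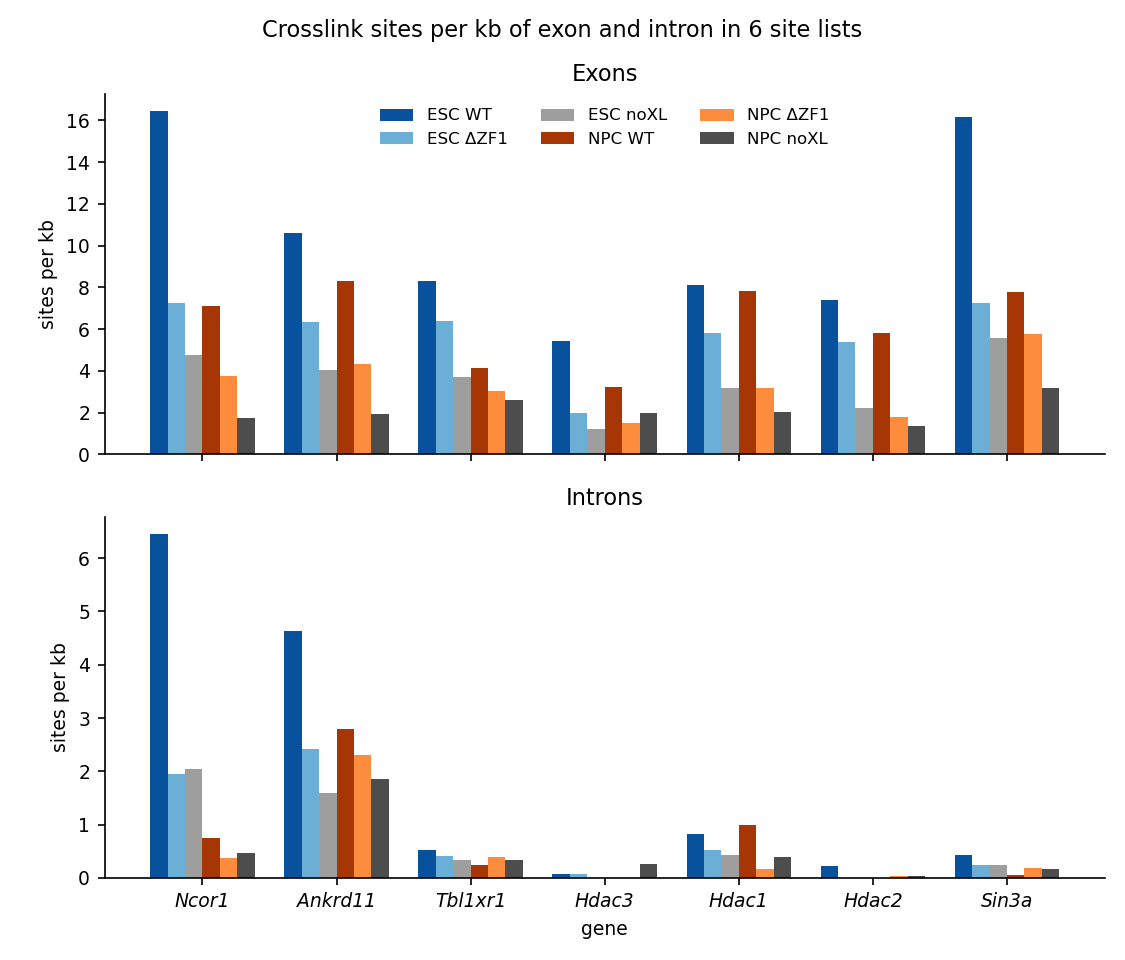
Crosslink sites per kb of exon (top) and of intron (bottom) in the 7 genes, with 1 bar for each of the 6 pooled lists. In ESC WT exon density ran from 5.43 to 16.5 sites per kb, while introns were densely covered in Ncor1 and Ankrd11, at 6.45 and 4.64 sites per kb. In ESC noXL the introns of these 2 genes had 2.05 and 1.60 sites per kb.

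Ncor1, the nuclear receptor corepressor scaffold, held 1045 WT sites in ESCs and 187 in NPCs. With ΔZF1 it held 344 and 96, and without UV 326 and 82. It ranked 5 among all genes by sites in ESC WT, 9 with ΔZF1 and 4 without UV, but 67, 159 and 93 in the matching NPC lists. Every NPC list was thus lower than every ESC list. From ESCs to NPCs the log2 ratio, scaled by the genic sites of the lists, was -1.58 (-1.81 to -1.36) with WT, -1.32 (-1.66 to -1.01) with ΔZF1 and -1.41 (-1.78 to -1.08) without UV. The lower count in NPCs was thus also present without UV, and the 3 intervals overlap.

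The difference between the cell types lay mostly in the introns of Ncor1. With WT, intron sites numbered 834 in ESCs and 96 in NPCs, and exon sites 211 and 91. Scaled to the intron or exon sites of all genes, the log2 ratio was -1.90 (-2.21 to -1.61) for introns and -0.44 (-0.80 to -0.09) for exons. With ΔZF1 the intron ratio was -2.17 (-2.63 to -1.75) and the exon ratio -0.26 (-0.77 to 0.23). Without UV they were -1.65 (-2.07 to -1.26) and -0.81 (-1.54 to -0.15). As a share of Ncor1 sites, introns held 79.8% (77.3 to 82.1) in ESC WT and 51.3% (44.2 to 58.4) in NPC WT. Without UV they held 81.3% (76.7 to 85.1) in ESCs and 73.2% (62.7 to 81.6) in NPCs. The intron share was thus lower in NPCs with UV, while without UV the intervals overlap.

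Along Ncor1, sites of ESC WT covered the whole gene body. Exons and introns are numbered here as in the principal transcript of each gene, so that a numbered intron can include exons of other transcripts, which the intron totals leave out. Intron 1 held 85 sites over 18632 nt, intron 22 held 77 over 7948 nt, intron 3 held 64 over 10495 nt and intron 42 held 52 over 4041 nt. The first 50 kb held 277 of 1045 WT sites in ESCs and 22 of 187 in NPCs. With ΔZF1 they held 52 of 344 and 10 of 96, and without UV 68 of 326 and 23 of 82. As shares these were 26.5% (23.9 to 29.3) and 11.8% (7.90 to 17.2) with WT, 15.1% (11.7 to 19.3) and 10.4% (5.76 to 18.1) with ΔZF1, and 20.9% (16.8 to 25.6) and 28.0% (19.5 to 38.6) without UV. A smaller part of the sites thus lay near the start of the gene in both ΔZF1 lists and in NPC WT than in ESC WT. In ESCs the scaled log2 ratio of ΔZF1 over WT was -1.41 (-1.86 to -1.01) in these 50 kb and -0.41 (-0.61 to -0.22) in the rest of the gene. From ESC WT to NPC WT the values were -2.70 (-3.38 to -2.13) near the start and -1.31 (-1.56 to -1.08) in the rest. Without UV the order was the other way, at -0.96 (-1.68 to -0.32) and -1.55 (-1.97 to -1.16), with overlapping intervals. For a comparison with other long genes each body was divided into 3 equal parts. This division was chosen after its values were seen, so the place of Ncor1 among these genes is only a description. The share of Ncor1 sites in the part nearest the start differed by -12.2 percentage points between ESC ΔZF1 and ESC WT. Of 544 genes of at least 50 kb with at least 50 sites in each list compared, 6.43% had a lower difference, and the median of the 544 was 0.0883 points. From ESC WT to NPC WT it changed by -14.3 points, with 5.11% of 528 genes lower.

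**Figure D2:**
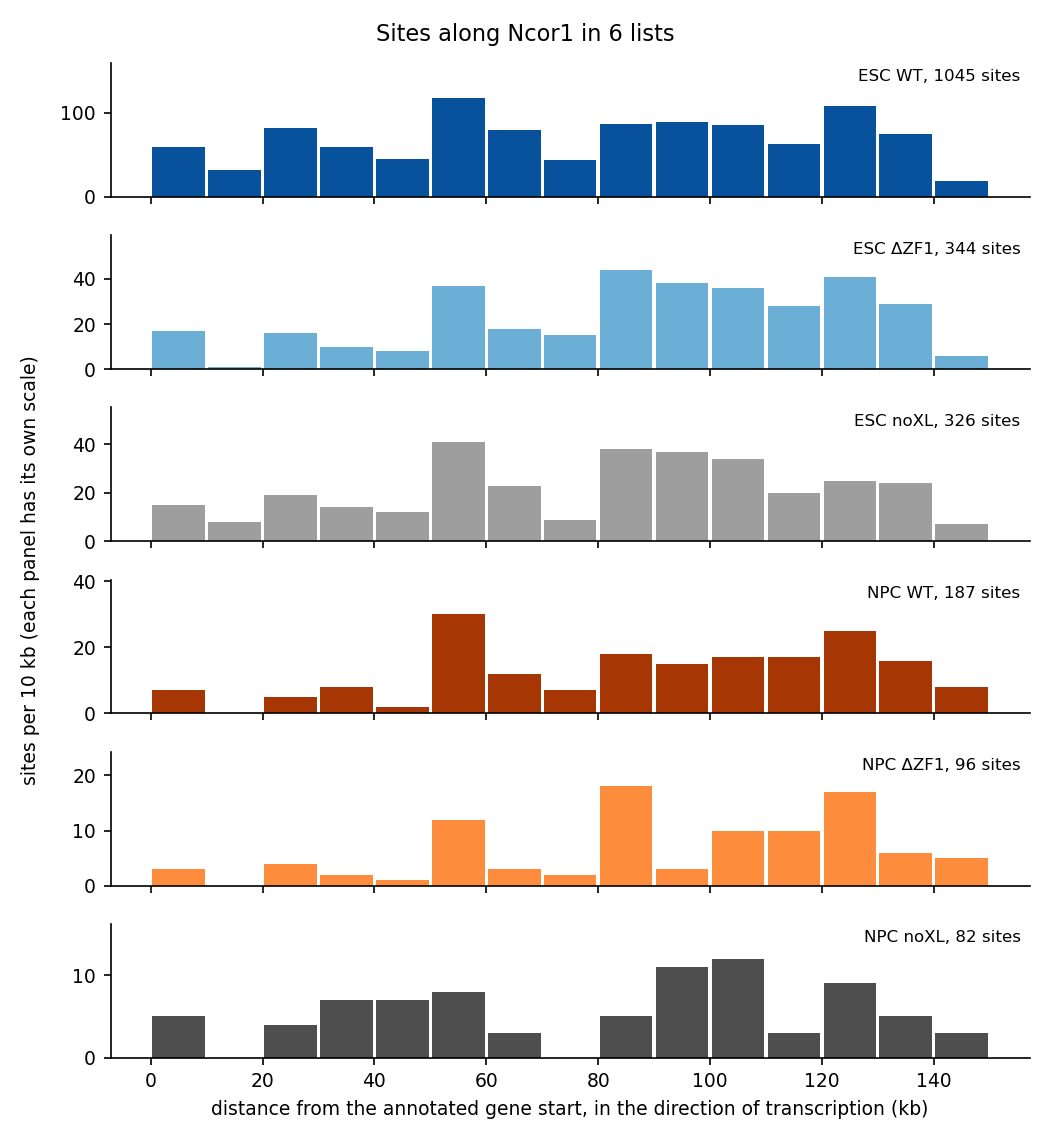
Number of sites per 10 kb along Ncor1 against distance from the annotated gene start in kb, with 1 panel per list and a scale for each panel (the last bin is only partly inside the gene). The first 50 kb hold 277 of 1045 sites in ESC WT but 52 of 344 in ESC ΔZF1 and 22 of 187 in NPC WT.

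With ΔZF1, Ncor1 had fewer sites than with WT relative to the list. The scaled log2 ratio was -0.62 (-0.80 to -0.45) in ESCs and -0.37 (-0.73 to -0.02) in NPCs. The NPC value was -0.0386 with a score minimum and -0.0778 at uridines alone. Scaled to the intron or exon sites of all genes, the ratio in NPCs was -0.95 (-1.47 to -0.47) for introns and -0.05 (-0.56 to 0.44) for exons. In ESCs the values were -0.68 (-0.89 to -0.48) and -0.23 (-0.59 to 0.12). The NPC counts changed alike in both parts, with 96 WT and 48 ΔZF1 sites in introns and 91 and 48 in exons. Introns held 26.9% of the genic sites of all genes in NPC WT and 39.6% in NPC ΔZF1. The difference between the parts in NPCs thus lay in the scale. Ncor1 lies on chromosome 11, whose genes as a whole had low ratios of the mutant over WT. The median of the other 606 genes of this chromosome was -0.46 in ESCs, while the medians of the other chromosomes ran from -0.02 to 0.18. Of these genes 38.4% were lower than Ncor1 in ESCs. In NPCs 66.4% of 500 were lower, with a median of -0.61. Ncor1 thus lay within the range of its chromosome, and the part of the chromosome in its ratio was not tested. Against noXL, ΔZF1 was at -0.45 (-0.67 to -0.23) on Ncor1 in ESCs and -0.36 (-0.78 to 0.06) in NPCs, whereas WT stood at 0.17 (-0.01 to 0.35) and 0.01 (-0.36 to 0.39).

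Ankrd11, the ankyrin repeat cofactor, held 834 WT sites in ESCs and 535 in NPCs. With ΔZF1 it held 449 and 399, and without UV 294 and 296. By sites it ranked between 3 and 9 among all genes in every list, so unlike Ncor1 it kept its place in NPCs. From ESCs to NPCs the scaled log2 ratio was 0.26 (0.10 to 0.41) with WT, 0.34 (0.14 to 0.53) with ΔZF1 and 0.57 (0.34 to 0.81) without UV. For this ratio the intervals of Ankrd11 and Ncor1 do not overlap with either protein or without UV. The ratio of ΔZF1 over WT was 0.09 (-0.08 to 0.25) in ESCs and 0.16 (-0.02 to 0.35) in NPCs, and both intervals include 0. Scaled by part of the gene, this ratio was 0.11 (-0.08 to 0.30) for introns and 0.21 (-0.15 to 0.55) for exons in ESCs, and -0.25 (-0.46 to -0.04) and -0.07 (-0.49 to 0.33) in NPCs. In NPCs the sign thus depended on whether all genic sites or the sites of the same part set the scale.

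Most Ankrd11 sites lay in large introns. Intron 1, of 67156 nt, held 413 WT sites in ESCs and 253 in NPCs, and intron 2, of 58683 nt, held 207 and 116. Intron 4 was denser, with 77 ESC WT sites over 8518 nt, or 9.04 per kb against 6.15 in intron 1. Exon 9, the longest exon with 6518 nt, held 74 WT sites in ESCs and 52 in NPCs, 32 and 27 with ΔZF1, and 26 and 6 without UV. Over all exons the ratio of WT to noXL, scaled to the exon sites of all genes, was -0.28 (-0.67 to 0.13) in ESCs and 0.55 (0.03 to 1.14) in NPCs. For introns, scaled to intron sites, it was 0.29 (0.08 to 0.51) and 0.08 (-0.15 to 0.30), and for the whole gene -0.01 (-0.20 to 0.19) and -0.32 (-0.52 to -0.12). The stretch from 100 to 130 kb, most of which is intron 2, held 15 of 834 WT sites in ESCs and 25 of 535 in NPCs, 8 of 449 and 31 of 399 with ΔZF1, and 3 of 294 and 9 of 296 without UV. With ΔZF1 its share was 1.78% (0.906 to 3.48) in ESCs and 7.77% (5.53 to 10.8) in NPCs. Sites were few from 110 to 120 kb, with 0 to 4 in each list, against 22 to 59 from 130 to 140 kb. The first 50 kb held 45.4% (42.1 to 48.8) of WT sites in ESCs and 44.1% (40.0 to 48.3) in NPCs. The share was 55.2% (50.6 to 59.8) and 41.9% (37.1 to 46.8) with ΔZF1, and 48.0% (42.3 to 53.7) and 53.4% (47.7 to 59.0) without UV. In ESCs the ΔZF1 sites thus lay nearer the start than the WT sites, the opposite of Ncor1.

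**Figure D3:**
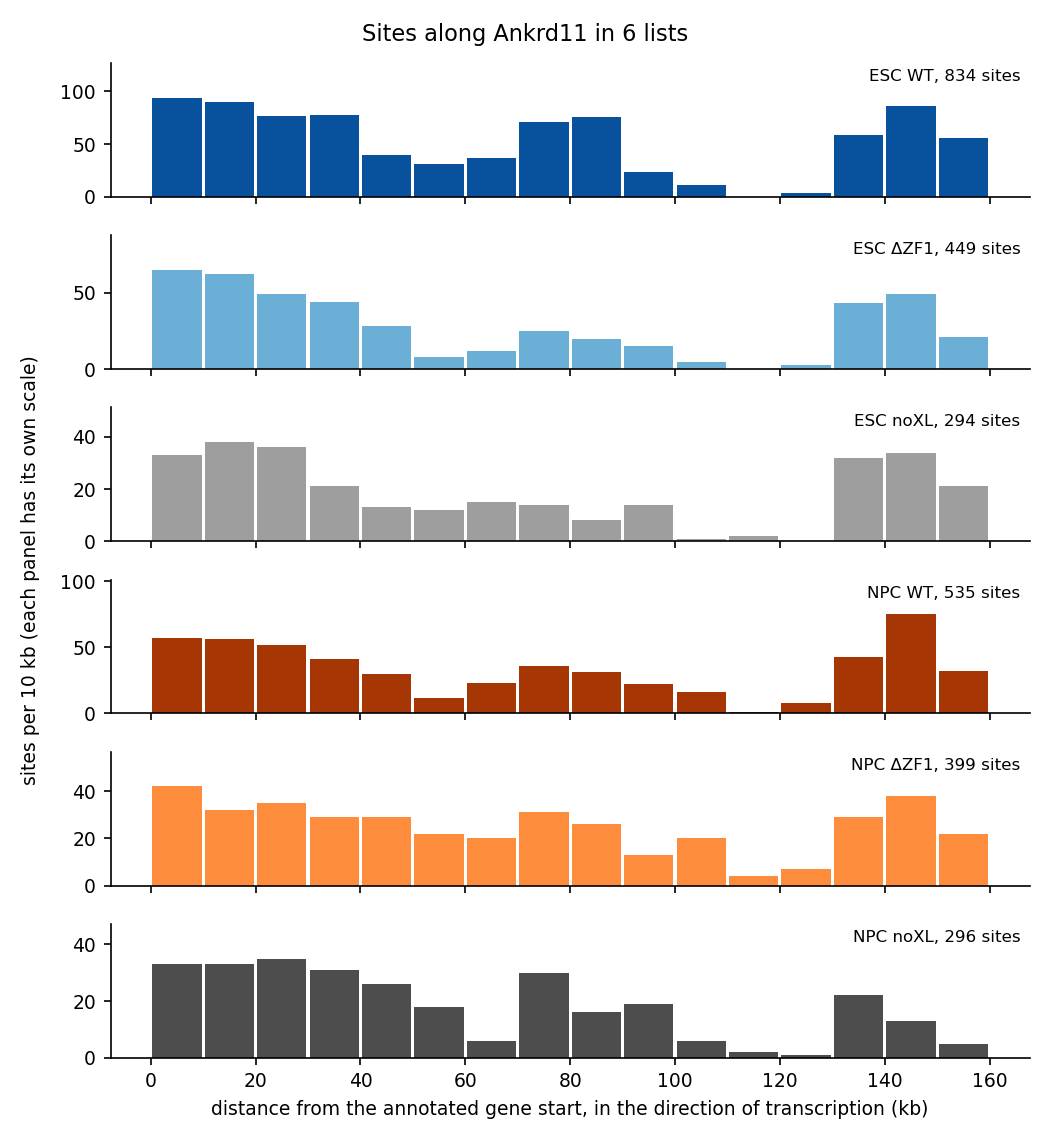
Number of sites per 10 kb along Ankrd11 against distance from the annotated gene start in kb, with 1 panel per list and a scale for each panel (the last bin is only partly inside the gene). From 110 to 120 kb each list holds 0 to 4 sites, and from 130 to 140 kb 22 to 59.

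Tbl1xr1, the WD40 partner in the NCOR1 complex, held 142 WT sites in ESCs and 69 in NPCs. With ΔZF1 it held 111 and 78, and without UV 78 and 67. It had the highest scaled ratios of ΔZF1 over WT among the 7 genes in both cell types, at 0.63 (0.27 to 0.98) in ESCs and 0.76 (0.30 to 1.23) in NPCs. WT was low on it against noXL too, at -0.65 (-1.04 to -0.25) in ESCs and -1.13 (-1.61 to -0.65) in NPCs. Against noXL, ΔZF1 stood at -0.03 (-0.44 to 0.40) and -0.37 (-0.84 to 0.10). These ratios share lists and are not independent of each other. The last exon, exon 17, which holds 3′ UTR, carried 50 of the 142 WT sites in ESCs and 16 of the 69 in NPCs. Intron 2, of 59419 nt, carried 36 and 9 of them. NPC ΔZF1 had 22 sites in intron 1 and 22 in intron 2, and NPC noXL 4 and 31. In the first 50 kb lay 44 of the 78 NPC ΔZF1 sites, or 56.4% (45.4 to 66.9), against 33.3% (23.4 to 45.1) in NPC WT and 43.3% (32.1 to 55.2) without UV. In ESCs the share was 27.9% (20.4 to 36.9) with ΔZF1, 39.4% (31.8 to 47.7) with WT and 30.8% (21.6 to 41.7) without UV, so the order of ΔZF1 and WT was the other way there, with overlapping intervals.

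Hdac3, the deacetylase of the NCOR1 complex, was sparsely covered. It held 23 WT sites in ESCs and 13 in NPCs, 9 and 6 with ΔZF1, and 5 and 12 without UV. Of the 23 ESC WT sites 22 were exonic, with 7 in exon 15 and 5 in exon 1. The interval of its ratio of ΔZF1 over WT in ESCs ran from -1.46 to 0.71, so no difference was detectable at this depth. In NPCs WT was at -1.07 (-2.16 to 0.05) against noXL.

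Sin3a, the scaffold of the SIN3 complex, held 109 WT sites in ESCs and 45 in NPCs, 51 and 40 with ΔZF1, and 42 and 25 without UV. Exons carried 87 of the WT sites in ESCs and 42 in NPCs, of which 64 and 34 were in coding sequence. The last exon, exon 22, held 20 and 8. The scaled ratio of ΔZF1 over WT was -0.10 (-0.59 to 0.36) in ESCs and 0.42 (-0.19 to 1.03) in NPCs, and that of NPC to ESC with WT was -0.36 (-0.88 to 0.12). All 3 intervals include 0.

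The deacetylases Hdac1 and Hdac2 differed in where their sites lay. Hdac1 held 47 WT sites in ESCs and 50 in NPCs, 32 and 15 with ΔZF1, and 21 and 16 without UV. Introns carried 19 of its 47 sites in ESC WT and 23 of 50 in NPC WT, and intron 3 of the principal transcript held 12 in each list. Hdac2 held 38 WT sites in ESCs and 26 in NPCs, 24 and 9 with ΔZF1, and 10 and 7 without UV. Its exons carried 33 of 38 WT sites in ESCs and 26 of 26 in NPCs, with 7 and 6 in exon 1. The position 1 nt after the annotated start of Hdac2, shown above, scored 20.6 with WT, 29.0 with ΔZF1 and 3.01 without UV in ESCs, and 10.5 with WT in NPCs. In NPCs Hdac1 had the lowest ratio of ΔZF1 over WT of the 7 genes, at -1.09 (-1.97 to -0.33), against 0.44 (-0.22 to 1.07) in ESCs. Over the alternatives other than no scaling, Hdac1 ran from -1.28 to -0.35 in NPCs. Its intron sites numbered 23 in NPC WT and 4 in NPC ΔZF1, and its exon sites 27 and 11. The Hdac2 ratio was -0.85 (-2.01 to 0.13) in NPCs and 0.34 (-0.41 to 1.05) in ESCs.

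A gene was counted as past the limit with a scaled log2 ratio of at least 1 or at most -1 and at least 20 sites in the lists compared. From ESC WT to ESC ΔZF1, 0 of 7 genes were past it in either direction, where 6.84% of all genes compared were higher and 5.45% lower. In NPCs 1 of 6, Hdac1, was lower, against 7.36% of all genes, and 0 were higher, against 5.76%. With a score minimum or at uridines alone 0 were past it, and over the alternatives other than no scaling the Hdac1 ratio ran from -1.28 to -0.35. From noXL to WT in ESCs 0 of 7 were past the limit, where 8.12% of genes were higher and 6.6% lower. In NPCs 2 of 7, Tbl1xr1 and Hdac3, were lower, against 6.51%, and 0 higher, against 10.5%. Before scaling, these genes were at 0.04 and 0.11, and 3 of 7 genes were higher and 0 lower. With a score minimum, at uridines alone or with a gene minimum of 50 sites, 1 gene was past the limit. From ESC WT to NPC WT 1 of 7, Ncor1, was lower, against 10.4%, and 0 higher, against 11.5%. Hdac1 lay just inside the limit there, at 0.99 (0.42 to 1.56). The median ratio of ΔZF1 over WT of all 7 genes was 0.09 in ESCs and -0.37 in NPCs, against 0.04 and -0.04 over all genes with at least 20 sites (Hdac3, under that minimum in NPCs, is included in the 7). Pooled over the 7 genes, the scaled log2 ratio of ΔZF1 over WT was -0.16 (-0.26 to -0.05) in ESCs and 0.06 (-0.08 to 0.21) in NPCs. Ncor1 and Ankrd11 made up 84.0% of the pooled WT sites in ESCs and 78.1% in NPCs, so the pooled values follow these genes, and without Ncor1 the ESC value was 0.16.

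**Figure D4:**
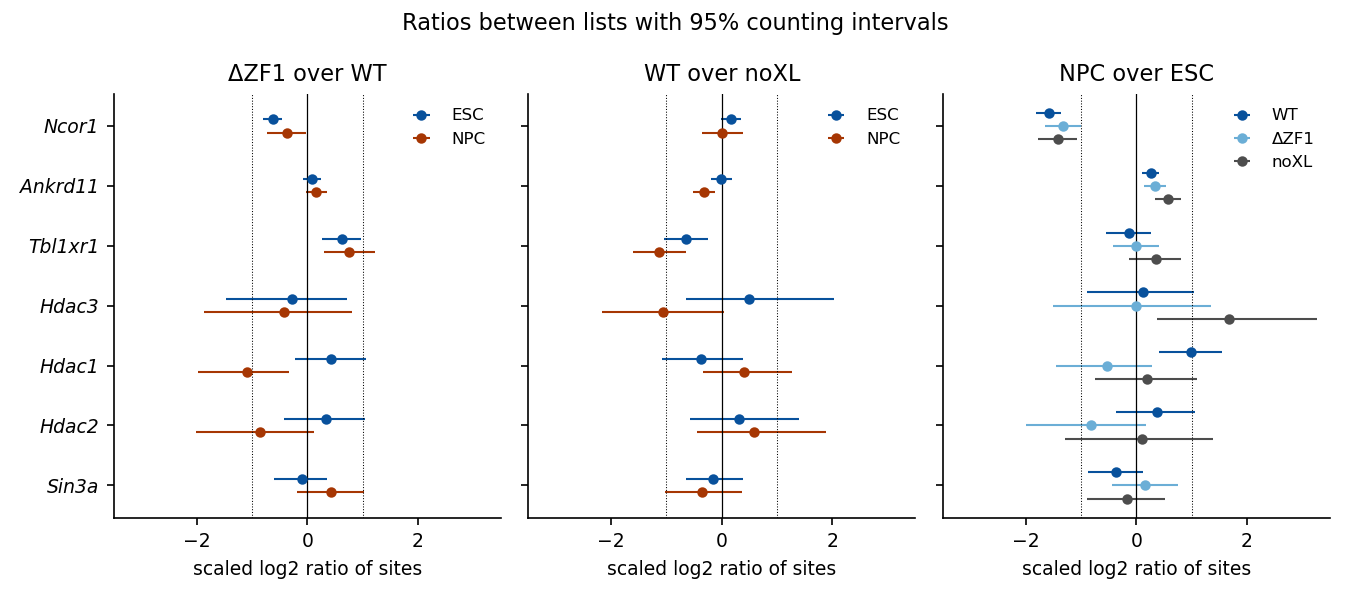
Log2 ratios of sites after scaling by the genic sites of the lists (x axis) for the 7 genes, for ΔZF1 over WT and WT over noXL in ESCs and NPCs and for NPC over ESC in the 3 kinds of list, where bars are 95% counting intervals and dotted lines mark the limits of -1 and 1. Ncor1 lies at -1.58, -1.32 and -1.41 in the NPC to ESC comparison, and the intervals of Hdac1, Hdac2 and Hdac3 are wide.

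Uridine, the base that UV links most readily, was under 62.5% (60.5 to 64.5) of the pooled WT sites in ESCs and 66.2% (63.1 to 69.1) in NPCs. With ΔZF1 it was under 52.3% (49.2 to 55.3) and 64.7% (60.9 to 68.3), and without UV under 29.0% (25.9 to 32.3) and 33.9% (29.9 to 38.1). The gene bodies themselves held from 28.9% uridine in Hdac1 to 33.1% in Tbl1xr1. In ESCs ΔZF1 thus lay between WT and noXL, while in NPCs the intervals of both proteins overlap. The lower share of ESC ΔZF1 was more marked in exons, with 43.4% (38.2 to 48.6) against 60.4% (56.5 to 64.1) with WT, than in introns, with 56.8% (53.1 to 60.5) against 63.3% (61.0 to 65.7). Ncor1 was at 67.0% (64.1 to 69.8) in ESC WT and 55.8% (50.5 to 61.0) with ΔZF1, and Ankrd11 at 58.4% (55.0 to 61.7) and 51.9% (47.3 to 56.5). In ESC WT the exons of Ankrd11 had 47.2% (39.9 to 54.5) uridine, against 73.0% (66.6 to 78.5) in the exons of Ncor1. Over the genic sites of all genes the share was 60.6% with WT, 49.2% with ΔZF1 and 28.3% without UV in ESCs, and 64.6%, 59.0% and 27.9% in NPCs. The 7 genes were thus above these values in NPCs with ΔZF1 and without UV, where the values of all genes lie outside their intervals.

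**Figure D5:**
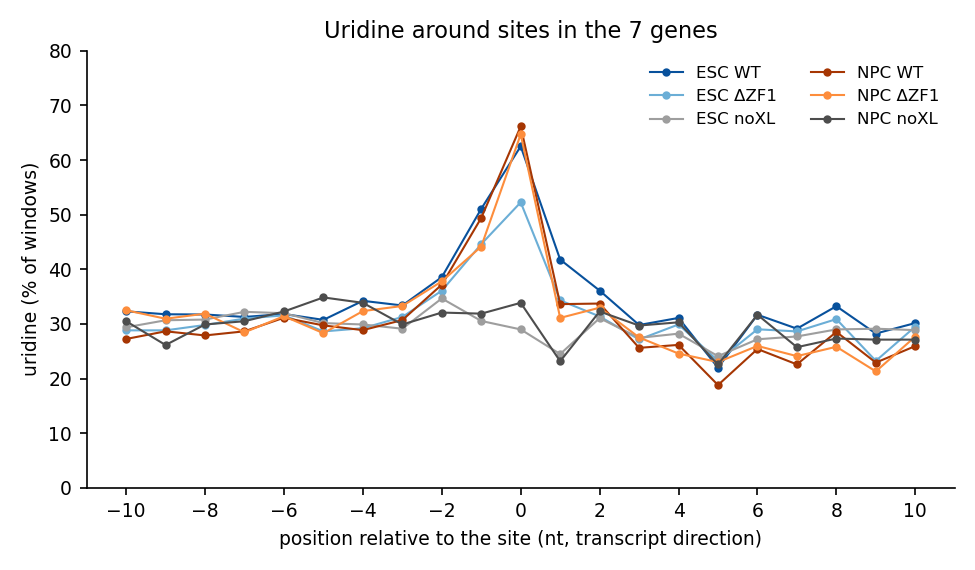
Share of windows with a uridine (y axis, percent) at each position from 10 nt before to 10 nt after the site (x axis), over the sites of the 7 genes in each list. The share peaks at the site in the 4 UV lists, at 62.5% for WT in ESCs and 66.2% for WT in NPCs, and lies at 29.0% and 33.9% there in the noXL lists.

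The uridine excess reached the neighbouring bases. In ESC WT 51.1% of the pooled sites had a uridine 1 nt before the site and 41.8% had it 1 nt after, against 30.5% and 24.5% in ESC noXL. A run of 4 uridines, written TTTT in DNA letters and searched on the RNA strand alone, was present in the window of 21 nt at 26.3% (24.5 to 28.1) of ESC WT sites in the 7 genes. It was present at 16.8% of the same sites moved by 500 or 1000 nt and at 21.05% of the ESC WT sites of all genes. With ΔZF1 in ESCs the share was 18.7% (16.5 to 21.2) against 15.9% after the move, and without UV 12.5% (10.4 to 15.0) against 16.8%. Without UV in NPCs it was 13.5% (10.8 to 16.7) against 16.7%. In NPCs it was 21.3% (18.8 to 24.1) for WT against 14.7%, and 19.8% (16.9 to 23.0) for ΔZF1 against 15.0%. Over the pooled sites the run was thus more frequent at UV sites than nearby, and less frequent at ESC noXL sites. Ncor1 had it at 31.6% (28.8 to 34.5) of ESC WT sites against 18.8% after the move, and Ankrd11 at 21.2% (18.6 to 24.1) against 14.4%. Of the other genes, Tbl1xr1 was at 32.4% (25.2 to 40.5) against 19.4%. Hdac2 was at 31.6% (19.1 to 47.5) against 20.4%, a value inside its interval. Sin3a, at 17.4% against 17.7%, Hdac1, at 6.38% against 6.91%, and Hdac3, at 4.35% against 10.9%, were not above the moved sites. Of the windows shown above for the top ESC WT sites, those of Tbl1xr1 and Hdac2 hold it.

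Few positions recurred between lists. Of 5804 positions called in the 7 genes, 95.6% were in 1 list only, against 93.4% of 1180776 positions in all genes, and 4 were in all 4 UV lists, of which 2 were in all 6. Of the ESC ΔZF1 sites in the 7 genes, 16.1% (14.0 to 18.5) had a WT site within 5 nt, against 7.01% after the move by 500 or 1000 nt. For all genic sites of that list the values were 24.2% and 4.23%. In NPCs the share in the 7 genes was 10.6% (8.43 to 13.2) against 3.03%, and for all genic sites 13.1% against 2.05%. Ncor1 stood at 19.2% (15.4 to 23.7) in ESCs and Ankrd11 at 12.7% (9.93 to 16.1). Of the NPC WT sites of Ncor1, 34.2% (27.8 to 41.3) were within 5 nt of a site of ESC WT, compared with 17.8% (14.8 to 21.2) for Ankrd11, while after the move the shares were 7.35% and 7.85%. For all genic sites of NPC WT the share was 28.2%, against 3.68% after the move, so Ncor1 was near the general share and Ankrd11 below it. A noXL site of the cell type was within 5 nt of 5.67% (4.79 to 6.71) of the WT sites of the 7 genes in ESCs and of 4.22% (3.10 to 5.71) in NPCs, against 2.16% and 1.65% after the move and 7.67% and 5.64% for all genic sites.

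Sites were called mostly alone or in small groups. The 1045 ESC WT sites of Ncor1 formed 884 clusters at a spacing of 8 nt, and the 834 of Ankrd11 formed 728. The median score of Ncor1 sites exceeded 45.6% of all genic scores in ESC WT and that of Ankrd11 43.4%, so a large number of sites did not go with high scores. Within 50 nt before an exon lay 1.43% of the intron sites of the 7 genes in ESC WT, where such stretches make up 1.27% of the intron sequence, and within 50 nt after an exon lay 0.311%. Within 50 nt of an annotated transcript start lay 76 of the 2238 ESC WT sites and 22 of the 776 ESC noXL sites. Overlap with a further gene of the same strand was found for 1 site of the 7 genes, an Ankrd11 site in NPC WT.

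Other genes of these pathways came from a list of 79 genes found in the annotation that are not among the 7, of which 23 are nuclear receptors and the rest subunits of corepressor complexes, deacetylases, ankyrin repeat cofactors and coactivators. Of these, 53 had at least 5 WT sites in ESCs and 51 had them in NPCs. In ESCs 46 could be compared between the proteins, of which 6 were higher with ΔZF1 and 2 lower past the limit, where 6.84% and 5.45% of all genes were, with a median of 0.21. In NPCs 35 could be compared, with 4 higher and 2 lower, where 5.76% and 7.36% of all genes were, and a median of 0.00, against medians over all genes compared of 0.04 in ESCs and -0.04 in NPCs. From noXL to WT 0 of 44 were higher and 7 lower in ESCs, against 8.12% and 6.6% of all genes, and in NPCs 3 of 39 were higher and 9 lower, against 10.5% and 6.51%. From ESC WT to NPC WT 5 of 43 were higher and 2 lower, against 11.5% and 10.4%.

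The listed genes with most ESC WT sites were Esrrb, an orphan nuclear receptor of naive stem cells, with 460, Ankrd17, an ankyrin repeat protein, with 322, and Phf12, a SIN3 subunit, with 233. Ankrd17 held 194 sites in NPC WT and had a ratio of ΔZF1 over WT of -0.10 (-0.38 to 0.17) in ESCs and 0.00 (-0.32 to 0.32) in NPCs. Phf12, like Ncor1 on chromosome 11, was at -0.78 (-1.19 to -0.41) and -0.48 (-1.04 to 0.04). Among listed genes with at least 50 sites in the lists compared, Carm1, an arginine methyltransferase coactivator, had the highest ratio in both cell types. It held 76 WT sites in ESCs and 43 in NPCs, 155 and 102 with ΔZF1, and 35 and 15 without UV, with ratios of 2.00 (1.61 to 2.40) and 1.81 (1.32 to 2.34). The lowest in ESCs was Nr6a1, an orphan nuclear receptor, with 58 WT and 8 ΔZF1 sites, a ratio of -1.73 (-2.92 to -0.84). In NPCs the lowest were Arid4b, a SIN3 subunit, at -0.97 (-1.89 to -0.17) and Chd4, the NuRD remodeller, at -0.57 (-0.99 to -0.17), and Mta3, another NuRD subunit, was at 1.27 (0.48 to 2.11).

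The pattern of Ncor1 over the 6 lists was most like those of Gjc1, Fgd1 and Fancm among 1851 genes with at least 200 sites in all lists together. The measure was the root mean square difference of log2 site shares after each gene was centred, and it was 0.132 for Gjc1, 0.176 for Fgd1 and 0.179 for Fancm, with a median over genes of 0.787. Gjc1, also on chromosome 11, held 196 WT sites in ESCs and 34 in NPCs, 83 and 20 with ΔZF1, and 69 and 17 without UV. The pattern of Ankrd11 was most like those of Bend4, at 0.0645, Ckap5, at 0.0785, and Tnrc6a, at 0.0947, with a median of 0.416. Tnrc6a held 220 WT sites in ESCs and 142 in NPCs, 109 and 119 with ΔZF1, and 78 and 73 without UV.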

How the data were processed

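Values came from 6 lists of crosslink sites, 1 per group, made from 23 iCLIP2 libraries. The authors used Flexbar for trimming, STAR for alignment to mm10, UMI-tools for duplicates and, on merged libraries, PureCLIP for single-base sites, with versions not given in the sources used here. The deposited value of a site is its PureCLIP score, used here to rank sites and as a minimum in alternatives. Depth is unknown.

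The genes, lists and measures were chosen with earlier results of these data known. Genes were those of GENCODE release M21 and bases those of GRCm38, the build called mm10. Log2 ratios of single genes had a pseudocount of 1 and pooled ratios none, and both were divided by the ratio of genic sites. Nearness meant 5 nt, and its background moved sites by 500 and 1000 nt either way. Named genes were the 7, the 3 listed genes with most ESC WT sites, the 2 highest and 2 lowest ratios of ΔZF1 over WT among listed genes with at least 50 sites in each cell type, and the 3 genes nearest in pattern to Ncor1 and to Ankrd11. The stretches along genes, the division into 3 parts, and the windows at positions called in all 6 lists were chosen after their values were seen. A gene of the list is not reported here. The scripts were tested on simulated data. Software was matplotlib 3.10.9, scipy 1.17.1, pandas 2.3.3 and numpy 2.4.6 under Python 3.11.15. Alternatives changed scaling, score minimum, base, gene assignment, clustering, genes pooled, removal of sites near noXL sites, pseudocount, gene minimum, transcripts, distance and window.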

Additional observations from a re-analysis of the deposited data

Results flagged for a closer look

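For 3 genes the scaled ratio (log2) of ΔZF1 over WT had opposite signs in ESCs and NPCs. It was 0.44 in ESCs and -1.09 in NPCs for Hdac1, 0.34 and -0.85 for Hdac2, and -0.10 and 0.42 for Sin3a. The Hdac1 intervals, -0.22 to 1.07 and -1.97 to -0.33, do not overlap, while those of Hdac2 and Sin3a do. Before scaling, the Hdac1 ratios were -0.54 and -1.67, both below 0. Over the other alternatives the NPC ratio of Hdac1 ran from -1.28 to -0.35.

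The ratio of WT to noXL had opposite signs for Hdac3, at 0.49 in ESCs and -1.07 in NPCs, and for Hdac1, at -0.38 and 0.41. The intervals of each pair overlap. Each value rests on 1 pooled list per group, so none of these differences was tested.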

How the results depend on the processing

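No paired analysis was possible because every list pools all libraries of its group and leaves no library to remove. Where a setting does not itself fix a change, the cause was not tested.

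Without scaling, the pooled log2 ratios followed the lengths of the lists and were -1.13 and -0.52 for ΔZF1 to WT, 1.53 and 0.87 for WT against noXL and 0.39 and 0.35 for ΔZF1 against noXL, ESCs first, and -1.27, -0.67 and -0.62 for NPC to ESC with WT, ΔZF1 and noXL. Genes past the limit were then 3 lower for ΔZF1 to WT in ESCs, 2 lower in NPCs, 6 higher for WT to noXL in ESCs and 3 lower for NPC to ESC with WT. For WT to noXL in NPCs 3 were then higher and 0 lower, where with scaling 2 were lower. Without Ncor1 the pooled values were in ESCs 0.16 for ΔZF1 to WT, -0.10 for WT to noXL and 0.0571 for ΔZF1 to noXL, and 0.21, 0.20 and 0.47 for NPC to ESC with WT, ΔZF1 and noXL. Without Ankrd11 they were -0.32 and -0.0896 for ΔZF1 to WT, -0.29 for ΔZF1 to noXL in ESCs, and -0.95, -0.72 and -0.64 for NPC to ESC. With a score minimum at the median of all lists, 3.02, they were 0.36 for ΔZF1 to WT in NPCs, -0.49 for WT to noXL in NPCs and -0.54 for NPC to ESC with WT. At uridines alone WT to noXL in NPCs was -0.54 and NPC to ESC without UV 0.19. The score minimum left 0 genes past the limit for ΔZF1 to WT in NPCs, 1 each in ESCs and NPCs for WT to noXL. Uridines alone left 0 and, for WT to noXL in NPCs, 1, as did a gene minimum of 50 sites.

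The score minimum moved the uridine share of WT sites to 66.5% in ESCs and 71.1% in NPCs, and their intron share to 66.0% and 53.8%. With exons of 1 principal transcript the intron share was 77.4% and 66.9%. ΔZF1 sites near a WT site were 5.10% in ESCs and 4.04% in NPCs at 0 nt, 60.4% and 41.5% at 50 nt, and 12.4% and 5.60% with the score minimum. Windows with TTTT were 21.1% at 11 nt and 35.7% at 41 nt.

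For Ncor1, Ankrd11, Tbl1xr1 and Hdac1, alternatives chosen after seeing the data were also tried. The Ncor1 ratio of NPC to ESC with WT stayed between -1.70 and -1.54 under the settings other than no scaling, and the ESC ratio of ΔZF1 to WT between -0.69 and -0.52. The NPC ratio of Ncor1 reached -0.04 and that of Hdac1 -0.35. Without scaling Ankrd11 turned to -0.64 from ESC WT to NPC WT and Tbl1xr1 to -0.35 from WT to ΔZF1 in ESCs.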
